A study of Mus musculus with 12 samples.

Results

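Arhgap36, Baiap3, Hap1, Ecel1, Resp18, Zcchc12, Gpr101, Esr1 and Irs4 are 9 genes known for high expression in neurons of the amygdala and hypothalamus. They were taken by name from the 37310 genes of the deposited counts, and all 9 were found, each under 1 Ensembl identifier of Gencode vM1. They were followed as a check of the dissection of ventral hippocampus (vHPC), a region whose ventral pole lies beside the amygdala. They were selected on the read counts of these libraries, with the FosB KO against WT difference in TRAP already known, so that difference is described below and not tested.

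Translating ribosome affinity purification (TRAP) collects mRNA bound to ribosomes that carry a tag. Here WT mice carried a Cre-dependent fusion of GFP and ribosomal protein L10a at the Rosa26 locus, and FosB KO mice carried the same fusion together with floxed FosB alleles, both on the C57BL/6 strain. Mice of both genotypes received retrograde HSV-Cre in the nucleus accumbens (NAc) and vHPC was punched 3 weeks later, so all 4 groups (TRAP and input of WT, TRAP and input of KO) come from Cre-treated tissue. Each group has 3 libraries, each from a pool of mice (3 by the labels), and every pool was split into TRAP and input. Libraries are named by genotype and pool number, 1 to 3 in WT and 2 to 4 in KO. By the design, Cre, and with it the loss of FosB and the tag, is limited to cells that took up the virus from NAc, which makes TRAP a view of the vHPC-NAc neurons, while input is the RNA of the whole punch with its untransduced cells. The punch was guided by fluorescence, and neurons of any structure in it that project to NAc, the neighboring amygdala included, can carry the tag.

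The 9 genes fall into 4 loose roles. Ecel1, Resp18 and Baiap3 belong to the secretory side of peptide-releasing neurons, where hormones and peptides are packed into dense-core vesicles. Gpr101 and Irs4 sit at or just beneath the cell membrane in receptor signaling, Arhgap36 and Hap1 bind signaling and trafficking proteins inside the cell, and Esr1 and Zcchc12 act in the nucleus on transcription. In the hypothalamus and medial amygdala these genes are found in the cells that control feeding, reproduction and social behavior, and the hippocampus is not among the places they are best known for.

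On mm9 the genes lie on 5 chromosomes, and 4 of the 9 are X-linked. Arhgap36 (ENSMUSG00000036198.6) spans chrX:46817122-46853421, Zcchc12 (ENSMUSG00000036699.6) chrX:33735899-33739153, Gpr101 (ENSMUSG00000036357.5) chrX:54749845-54756934 and Irs4 (ENSMUSG00000054667.7) chrX:138145541-138159806. Ecel1 (ENSMUSG00000026247.7) and Resp18 (ENSMUSG00000033061.8) are on chromosome 1, at chr1:89044230-89053096 and chr1:75268774-75274990. Baiap3 (ENSMUSG00000047507.4) is at chr17:25379604-25393309, Hap1 (ENSMUSG00000006930.8) at chr11:100208641-100217455 and Esr1 (ENSMUSG00000019768.9) at chr10:5340927-5734948. All are annotated as protein-coding, and the counts are of reads over their exons. Exons of Baiap3 overlap those of 0610007P22Rik and exons of Irs4 overlap Gm15295, both on the opposite strand. Exons of Baiap3 also overlap AC122454.1, annotated as a miRNA on the same strand. The strand setting of the counting is not given in the sources used here. Reads that could belong to several genes were set aside as ambiguous, so the counts of both genes may lack reads of shared exons. Whether they hold reads of their partners was not tested. Of the 75-base stretches of its transcripts, Baiap3 shared 1.42% with another coding transcript, and the other 8 members shared none.

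FosB protein pairs with Jun proteins and binds DNA at AP-1 sites (TGANTCA, where N is any base). The 250 bases upstream of each start were read on both strands from RefSeq promoters (GRCm38.p6), which held all 9 genes in 12 windows. The AP-1 letters were in 0 of these 12 windows, against 6.749% of all 32851 windows of that length. The cAMP response element (CRE), TGACGTCA, was also in 0 of the 12 windows (1.546% of all), and its half-site TGACG was in 3, from Gpr101 and both starts of Hap1 (17.765% of all). The windows of both Hap1 starts overlap and hold the same copy of this half-site, which is thus counted more than once. The full estrogen response element (ERE), GGTCA and TGACC with any 3 bases between them, was in 0 of the 12 (0.064% of all). Its half-site AGGTCA was in 1, upstream of the first Arhgap36 start (14.024% of all). The windows of the 4 X-linked members are shown, since these were 4 of the 5 with the largest KO to WT ratio in TRAP (for Arhgap36 the first of both starts, as the second holds none of the letters). The sequences run 5′ to 3′ on the strand of the gene and end just before the start. Capitals mark half-sites on either strand, those of the ERE at bases -189 to -184 and -86 to -81 of Arhgap36 and that of the CRE at bases -73 to -69 of Gpr101, and the windows of Zcchc12 and Irs4 hold none of the letters searched.
Arhgap36, chrX:49463695-49463944, plus strand: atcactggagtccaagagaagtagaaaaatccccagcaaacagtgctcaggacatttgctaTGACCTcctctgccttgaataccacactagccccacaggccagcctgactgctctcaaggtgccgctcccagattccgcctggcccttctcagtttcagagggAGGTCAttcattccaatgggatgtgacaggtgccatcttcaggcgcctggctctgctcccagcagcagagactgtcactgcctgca
Zcchc12, chrX:36195654-36195903, plus strand: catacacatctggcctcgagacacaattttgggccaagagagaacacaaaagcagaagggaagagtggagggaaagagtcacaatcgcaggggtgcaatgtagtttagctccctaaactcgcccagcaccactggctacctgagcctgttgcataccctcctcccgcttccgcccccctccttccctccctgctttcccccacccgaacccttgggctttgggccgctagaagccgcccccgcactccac
Gpr101, chrX:57503758-57504007, minus strand: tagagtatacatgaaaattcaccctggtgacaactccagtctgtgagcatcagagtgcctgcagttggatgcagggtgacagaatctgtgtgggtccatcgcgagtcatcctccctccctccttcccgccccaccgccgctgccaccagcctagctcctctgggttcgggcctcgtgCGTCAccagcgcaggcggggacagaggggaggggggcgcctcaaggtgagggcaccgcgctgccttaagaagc
Irs4, chrX:141725218-141725467, minus strand: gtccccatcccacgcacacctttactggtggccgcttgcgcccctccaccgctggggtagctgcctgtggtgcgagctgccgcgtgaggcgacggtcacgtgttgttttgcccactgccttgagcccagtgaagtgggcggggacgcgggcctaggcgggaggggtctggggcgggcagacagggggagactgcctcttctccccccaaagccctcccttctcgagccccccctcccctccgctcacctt

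The libraries held 3416030 to 5614089 reads on genes, and the levels below are TMM-scaled CPM, in which the reads of a gene are divided by the depth of the library. A gene with 3 reads stood at 0.534 to 0.878 CPM before scaling, and the members had 7 to 4314 reads in a library, so each was detected in all 12. Fosb, the targeted gene, averaged 39.1 ± 6.65 CPM in WT and 23.2 ± 5.46 CPM in KO TRAP libraries (SD, n = 3 each). Its input levels were 25.6 ± 4.11 CPM for WT and 16.0 ± 1.12 CPM for KO (SD, n = 3 each). The KO to WT log2 difference of Fosb was -0.76 (95% interval -1.19 to -0.33) in TRAP and -0.68 (-1.13 to -0.23) in input, so it was about as large in the whole punch as in the tagged cells, although the design limits the deletion to the latter. Mitochondrial transcripts took 0.0305% to 0.130% of the counts in TRAP and 5.29% to 9.05% in input. Of the 25 markers of hippocampal neurons listed, Slc17a7, the vesicular glutamate transporter of forebrain pyramidal neurons, was at 504 to 707 CPM, and the pyramidal neuron factors Neurod2 at 160 to 304 CPM and Neurod6 at 97.6 to 234 CPM. These 3 are also expressed in cortex and amygdala and do not tell hippocampus from them. Markers tied more closely to CA1 were present in all 12 libraries, with Fibcd1 at 37.1 to 223 CPM and Spink8 at 4.00 to 14.1 CPM. Wfs1, which central amygdala and striatum express as well as CA1, was at 39.2 to 82.3 CPM, highest in KO TRAP pool 2 (82.3) and close to that in WT TRAP pool 1 (81.0). Of dentate gyrus markers, Prox1 was at 2.65 to 7.28 CPM in TRAP and 28.7 to 72.6 CPM in input, and Tdo2 was at 0 in 4 of the 12 libraries. Fn1 was at 0.178 to 4.88 CPM in TRAP, and Pou3f1 is listed at 0 in all 12. Genes of this list other than Slc17a7 and Zbtb20 were named with their values in view.

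Levels of different members were compared per length, as RPKM, reads scaled by exon length and by depth. In WT input, Hap1 was highest at 132 ± 23.6 RPKM (SD, n = 3), followed by Resp18 at 58.7 ± 13.6 and Zcchc12 at 29.0 ± 5.40, and none of these 3 overlapped its neighbor in the order. Below them came Baiap3 (5.01 ± 1.28 RPKM), Gpr101 (2.95 ± 0.974), Ecel1 (1.99 ± 0.867), Arhgap36 (1.77 ± 1.30), Esr1 (0.652 ± 0.182) and Irs4 (0.616 ± 0.275), and each of these 6 overlapped the next in the range over libraries. The first 3 places were the same in all 4 groups, again with no overlap between neighbors.

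Arhgap36, a RhoGAP-family protein that binds and inhibits the catalytic subunit of protein kinase A and favors Hedgehog signaling, varied widely between pools. WT input gave 11.0, 2.52 and 4.63 CPM (pools 1, 2 and 3), and KO input 10.4, 6.88 and 3.49 CPM (pools 2, 3 and 4). The TRAP levels were 13.3, 4.23 and 6.37 CPM for WT, then 28.2, 19.5 and 17.1 CPM for KO. The input libraries of both genotypes overlapped, whereas every KO TRAP library was above every WT TRAP library.

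Hap1, the huntingtin-associated protein 1 that links cargo to motors, was the most abundant member. WT TRAP pools gave 767, 743 and 686 CPM and KO TRAP pools 939, 823 and 894 CPM. The inputs were at 584, 406 and 510 CPM in WT and 571, 649 and 525 CPM in KO. TRAP libraries of both genotypes were all above all input libraries, and those of KO were all above those of WT.

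Zcchc12, a coactivator of transcription in bone morphogenetic protein signaling, had WT TRAP levels of 86.0, 71.4 and 88.4 CPM and KO TRAP levels of 118, 129 and 114 CPM. Its input levels were 55.4, 63.2 and 79.6 CPM in WT and 80.5, 61.9 and 70.2 CPM in KO. The KO TRAP libraries again lay above all others, with little spread among themselves.

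Gpr101, an orphan receptor that raises cAMP, was even in WT TRAP at 25.2, 20.9 and 23.1 CPM. KO TRAP pools 2, 3 and 4 gave 20.9, 43.9 and 62.7 CPM, so that KO pool 2 was at the low end of the WT range and the other two were above it. Input levels were 12.8, 13.1 and 22.0 CPM in WT and 15.2, 24.0 and 26.6 CPM in KO.

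Baiap3, a Munc13-related protein of dense-core vesicle traffic, gave 33.9, 30.8 and 37.7 CPM for the WT TRAP libraries, and 95.1, 37.5 and 33.2 CPM for those of KO. KO pool 2 alone was far above the rest, and the other two KO pools were among the WT values. In input its levels were 22.6, 17.6 and 29.5 CPM in WT and 49.5, 34.6 and 31.6 CPM in KO, and here the genotypes did not overlap.

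Irs4, a docking protein downstream of insulin and related receptors, was the rarest member. TRAP levels were 2.67, 2.82 and 1.86 CPM for WT, against 11.2, 3.65 and 3.91 CPM for KO. Input levels were 4.06, 2.06 and 5.51 CPM for WT, against 8.05, 3.77 and 5.88 CPM for KO. KO pool 2 was highest in TRAP and in input, and with 7 to 40 reads a library the values carry large counting error.

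Ecel1, a neuronal membrane peptidase of the endothelin-converting enzyme family, had WT TRAP levels of 31.5, 6.58 and 25.8 CPM, and 25.1, 26.3 and 18.6 CPM in the KO libraries. WT pool 2 was the low one in TRAP and, at 4.12 CPM against 10.2 and 6.61, in WT input. KO input ran from 9.47 to 12.9 CPM.

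Resp18, a protein of endocrine secretory granules, was with Hap1 and Zcchc12 among the least variable. It ran from 61.1 to 76.4 CPM in WT TRAP and from 63.8 to 80.8 in KO TRAP, and from 35.5 to 55.2 CPM in WT input and from 36.8 to 57.1 in KO input. The genotypes overlapped throughout, and all TRAP libraries were above all input libraries.

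Esr1, estrogen receptor alpha, gave 20.1, 8.46 and 21.5 CPM for WT TRAP, and 14.5, 16.6 and 17.3 CPM for KO TRAP. Its input levels were 6.10, 9.85 and 10.8 CPM in WT and 8.05, 19.3 and 13.7 CPM in KO. WT pool 2 was the lowest TRAP library, and the groups overlapped in each comparison.

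**Figure D1:**
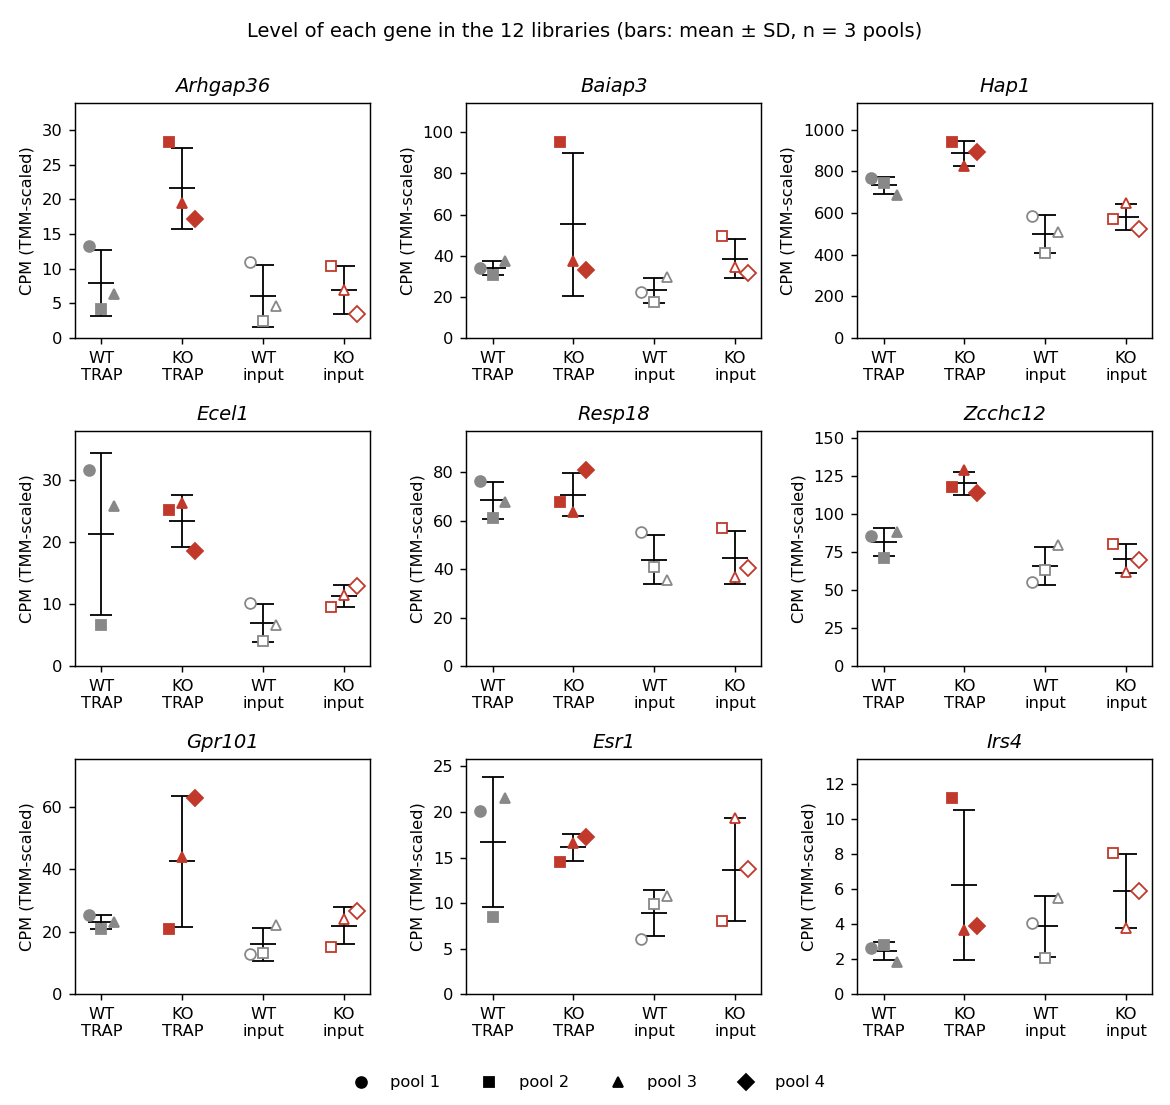
TMM-scaled CPM of the 9 genes in the 12 libraries, 1 panel a gene with its own linear axis from 0. Filled symbols are TRAP and open symbols input, grey is WT and red KO, the symbol gives the pool number, and bars are mean ± SD of 3 pools. KO TRAP lies above WT TRAP without overlap for Arhgap36, Hap1, Zcchc12 and Irs4, and KO pool 2 (square) is the high point for Baiap3 and Irs4.

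KO was first compared with WT in input, which asks whether the punches themselves held different amounts of these RNAs. In bulk tissue, more cells of a kind and more RNA per cell cannot be told apart. None of the 9 members passed an adjusted p of 0.05 in edgeR's quasi-likelihood test, with adjusted p = 1 for each, and 4 of 12816 genes did (0.0312%). DESeq2 called 0 members and 8 genes. At an unadjusted p under 0.05 there was 1 member, Baiap3, against 2.89% of all genes in either direction. Baiap3 was 1.65-fold higher in KO input (log2 0.73, SE 0.22, 95% interval 0.26 to 1.19, unadjusted p = 0.00405 and adjusted p = 1 in edgeR). It was also the 1 member whose input libraries did not overlap between genotypes, against 4.2% of all genes that were higher in KO without overlap.

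The log2 difference in input was above 0 for all 9 members, from 0.03 for Resp18 to 0.73 for Baiap3, with a median of 0.45, while that of all genes tested was 0. The members share pools, so these are not 9 independent values, and each input comes from the same mice as a TRAP library by which the members were known. The signs and the median are therefore given as a description, and nothing is read from them against all genes. The sign rested on single pools for 3 of them. Without KO pool 2 the difference was -0.20 for Arhgap36 and -0.17 for Resp18, and without WT pool 2 it was -0.16 for Arhgap36 and -0.01 for Resp18. Without WT pool 3 Resp18 was at -0.10. Zcchc12, whose difference was 0.10, was at 0.00 without WT pool 1. Other omissions raised the difference, to 0.95 for Arhgap36 and 1.08 for Ecel1 without WT pool 1, where the main values were 0.22 and 0.72. Pool 4 of KO also lowered Arhgap36, which was at 0.53 without it. Intervals were wide for the low genes, with Arhgap36 at 0.22 (95% interval -0.86 to 1.30) and Irs4 at 0.60 (-0.41 to 1.61), and narrow for Hap1 at 0.22 (-0.05 to 0.49). A difference of 2-fold in either direction was thus outside the interval for Hap1, Zcchc12 and Resp18, and within it, on the higher side, for the other 6.

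In TRAP, the contrast by which the members were known, the log2 KO to WT differences are given without a test. They were 1.40 (SE 0.36) for Arhgap36, 1.32 (SE 0.56) for Irs4, 0.88 (SE 0.33) for Gpr101, 0.69 (SE 0.47) for Baiap3 and 0.55 (SE 0.13) for Zcchc12. Hap1 was at 0.27 (SE 0.08), Ecel1 at 0.12 (SE 0.53), Resp18 at 0.05 (SE 0.14) and Esr1 at -0.05 (SE 0.31). Their median was 0.55. Of the members, 4 did not overlap between genotypes, a background of 5.74% of the 11727 genes tested being higher in KO without overlap, and 0.0682% of all genes passed an adjusted p of 0.05 in edgeR. Without KO pool 2 the median over members was 0.23, with Baiap3 at 0.06 and Irs4 at 0.61, while Arhgap36 was at 1.17, Zcchc12 at 0.57 and Hap1 at 0.23. Without KO pool 4 Gpr101 was at 0.49. Without WT pool 1 Arhgap36 was at 2.03, and without WT pool 2 Ecel1 was at -0.30 and Esr1 at -0.36.

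**Figure D2:**
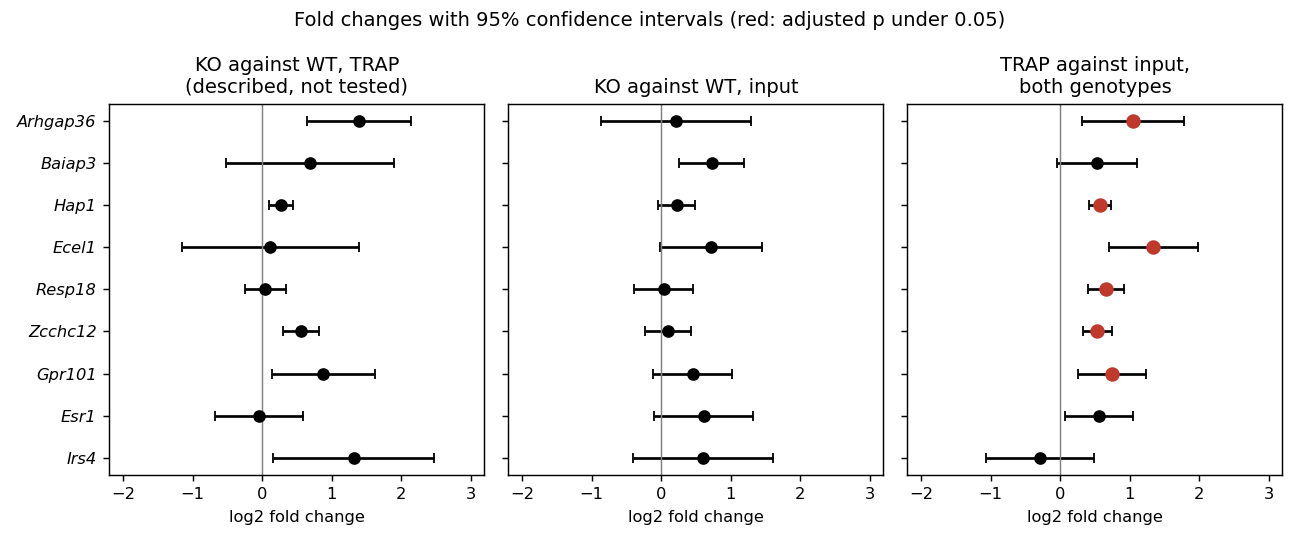
Log2 fold change of the 9 genes (points) with 95% confidence intervals (bars), KO against WT in TRAP, KO against WT in input, and TRAP against input over both genotypes. Red points have an adjusted p under 0.05 in edgeR, and the left panel carries no test. In input all points lie above 0 and none is red, and in the right panel 6 of 9 are red.

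TRAP was then compared with input over both genotypes, a contrast that weighs KO and WT equally. It asks whether the RNAs were in the tagged vHPC-NAc cells more than in the whole punch. Of the 9 members, 6 were higher in TRAP at an adjusted p of 0.05 and 0 were lower, with 19.6% of 13214 genes higher and 22.5% lower. The KO TRAP libraries, by whose excess over WT the members were known, are part of this TRAP mean, so the count and the p-values are not independent of the choice of members and nothing is read from the count against the background. Ecel1 rose most, 2.53-fold (log2 1.34, SE 0.30, adjusted p = 0.00183 in edgeR), and Arhgap36 rose 2.07-fold (log2 1.05, SE 0.35, adjusted p = 0.0217 in edgeR). Gpr101 rose 1.67-fold (edgeR adjusted p = 0.0155), Resp18 1.58-fold (0.000124), Hap1 1.49-fold (9.24e-07) and Zcchc12 1.45-fold (0.000113). The median log2 difference over members was 0.58, and over all genes it was -0.01. By genotype, without a test, the log2 difference of TRAP to input for Arhgap36 was 0.46 in WT (95% interval -0.61 to 1.54) and 1.64 in KO (0.62 to 2.65). Gpr101 was at 0.53 in WT (-0.18 to 1.23) and 0.96 in KO (0.29 to 1.63), and Zcchc12 at 0.31 in WT (0.01 to 0.60) and 0.77 in KO (0.47 to 1.06). For these 3 genes the value in KO was thus the larger, and for Arhgap36 and Gpr101 the WT interval included 0. Ecel1 was at 1.64 in WT (0.70 to 2.57) and 1.04 in KO (0.16 to 1.93), while Hap1 (0.55 and 0.61) and Resp18 (0.65 and 0.66) were nearly level between WT and KO, with all of these intervals above 0. Of the members that did not pass, Esr1 was at 0.89 in WT (0.18 to 1.60) and 0.23 in KO (-0.45 to 0.92), Baiap3 at 0.55 (-0.29 to 1.39) and 0.51 (-0.28 to 1.31), and Irs4 at -0.65 (-1.80 to 0.50) and 0.07 (-0.98 to 1.12).

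The other 3 members did not pass. Esr1 was at log2 0.56 (95% interval 0.07 to 1.06, edgeR adjusted p = 0.0616) and Baiap3 at 0.53 (-0.05 to 1.11, edgeR adjusted p = 0.132). With the pool as a block, which pairs both libraries from 1 set of mice, Baiap3 passed at log2 0.49 (edgeR adjusted p = 0.00480). Irs4 was at -0.29 (-1.07 to 0.49, edgeR adjusted p = 0.574). Some calls changed when a pool was left out, with little change of the fold where a call was lost. Gpr101 no longer passed without WT pool 1 (log2 0.66, adjusted p = 0.125 in edgeR) or WT pool 2 (log2 0.71, 0.0644), nor Arhgap36 without WT pool 3 (log2 1.04, 0.0682) or KO pool 3 (log2 1.10, 0.0601), and Esr1 passed without WT pool 2 (0.0137) or KO pool 3 (0.0356). Hap1, Resp18, Zcchc12 and Ecel1 passed without any 1 pool.

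Within pools, 7 of the 9 members were higher in TRAP than in the input of the same mice in all 6 pools, and the exceptions were Esr1 and Irs4. Of all genes 18.2% were, from which nothing is read, since the KO TRAP libraries by which the members were known are among these pools. In group ranges, 2 members, Hap1 and Resp18, had all TRAP libraries above all input libraries (9.88% of all genes). The log2 ratio of TRAP to input for Arhgap36 was 0.26, 0.65 and 0.42 in WT pools 1 to 3 and 1.39, 1.44 and 2.14 in KO pools 2 to 4. The ratios of the genotypes thus did not overlap for this gene, which is described and not tested, since it rests on the TRAP libraries by which the gene was known. Ecel1 ran from 0.62 to 1.88 in WT and from 0.51 to 1.36 in KO, and the genotypes overlapped. Irs4 was above 0 in WT pool 2 (0.37) and KO pool 2 (0.45), close to 0 in KO pool 3 (-0.04), and below it in WT pool 1 (-0.53), KO pool 4 (-0.54) and WT pool 3 (-1.35).

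**Figure D3:**
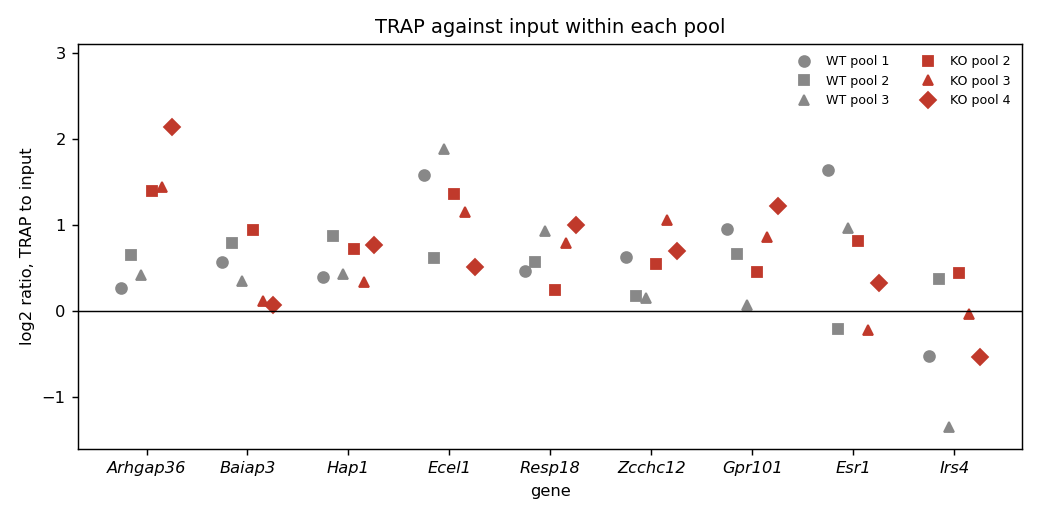
Log2 ratio of the TRAP library to the input library of the same pool for each of the 9 genes, grey for WT pools, red for KO pools, with the symbol giving the pool number. All 6 points lie above 0 for 7 genes, and the KO points of Arhgap36 (1.39 to 2.14) lie above its WT points (0.26 to 0.65).

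Several members shared their highest or lowest pool. The choice of members by KO above WT favors a KO library as the highest and a WT library as the lowest in TRAP, and the inputs come from the same mice, so nothing is read from these counts against the shares of all genes. KO pool 2 was the highest of the 6 TRAP libraries for 4 of 9 members (17.7% of all genes) and the highest of the 6 inputs for 4 of 9 (14.7%). WT pool 2 was the lowest TRAP library for 7 of 9 members (19.1% of all genes) and the lowest input for 5 of 9 (12.7%). Centered within TRAP and within input, and set to unit variance, the mean profile of the members was lowest in WT pool 2, at -1.24 in TRAP and -1.05 in input, and highest in KO pool 2, at 0.79 and 0.63.

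Markers of other structures were read beside this. KO TRAP pool 2 stood apart in genes of the central and medial amygdala, which are named here after their values were seen. Tac2, a tachykinin precursor, was at 27.6 CPM there and at 0 to 0.732 in the other 5 TRAP libraries. Pdyn, the dynorphin precursor, was at 25.1 CPM against at most 2.44, Prkcd, a kinase that marks a class of central amygdala neurons, at 18.1 against at most 2.65, Nts, the neurotensin precursor, at 16.7 against at most 2.44, and the striatal and amygdalar factor Six3 at 12.3 against at most 1.06. In the input of the same pool Prkcd was at 19.2 CPM, Six3 at 13.7, Tac2 at 6.16 and Nts at 5.68, each the highest of the 6 inputs, while Pdyn was at 4.50 CPM there and at 7.27 in WT input pool 3. Gad1, which makes GABA, was at 172 CPM in KO TRAP pool 2 and at 45.2 to 88.9 in the other TRAP libraries. Over the 22 genes of that list, the summed level was 443 to 585 CPM in WT TRAP, and 781, 416 and 525 CPM in KO TRAP pools 2, 3 and 4, with 1 to 5 genes at 0 in a library. KO TRAP pool 2 was the highest of the 6 TRAP libraries for 6 of the 12 genes of the list tested there, and for 8 of 14 tested markers of GABA neurons. The part of these cells in the KO to WT values of the members was not tested. Measured without that pool, the TRAP difference was smaller for Baiap3 (0.06), Irs4 (0.61), Arhgap36 (1.17), Hap1 (0.23) and Ecel1 (0.07) and larger for Gpr101 (1.21), Zcchc12 (0.57) and Resp18 (0.08), and Esr1 went from -0.05 to 0.02. The moves of Baiap3 and Irs4 were larger than the SE of their difference with all pools, and those of the other 7 members were smaller. Leaving out other pools also moved members by more than that SE. Gpr101 was at 0.49 without KO pool 4, and Arhgap36 at 2.03 without WT pool 1. The SE of Baiap3 was 0.47 with all pools and 0.20 without KO pool 2.

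Among inputs, WT pool 3 was highest in some genes shared by striatum and amygdala, with Rgs9 at 37.9 CPM (2.61 to 20.1 in the others) and Ppp1r1b at 146 (39.6 to 51.7), also named after their values were seen. The summed list reached 867 CPM there and 457 to 615 CPM in the other 5 inputs. That library was the highest of the 6 inputs for 0 of the 9 members and for 14.4% of all genes. The choice of members by KO above WT disfavors a WT library as the highest, so nothing is read from this count.

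The hypothalamus list of 30 genes was uneven, with most of its transcription factors and several peptides at or near 0 and other genes expressed. Six6, Hmx2, Hmx3, Nr5a1 and Gnrh1 had no read in any of the 12 libraries, and 21 of the 30 never had more than 10 reads in a library. The homeobox factors Otp and Nkx2-1 reached at most 0.711 and 2.13 CPM, Sim1 at most 1.42, Avp, the vasopressin precursor, at most 2.37, and Oxt, the oxytocin precursor, at most 1.33. The highest Avp levels were in TRAP and input of KO pool 2 (1.95 and 2.37 CPM), and it was at 0 in 9 of the other 10 libraries. Trh, the thyrotropin-releasing hormone precursor, was at 3.99 to 42.7 CPM, highest in WT TRAP pool 1 and KO TRAP pool 4. Cartpt, the precursor of the CART peptide, was at 22.9 CPM in KO TRAP pool 2 against 1.88 to 6.90 in the other TRAP libraries, and at 1.83 to 7.58 CPM in input. Gabrq, a GABA-A receptor subunit, and Ngb, neuroglobin, were also highest in KO TRAP pool 2, at 9.20 and 23.1 CPM against at most 3.55 and 12.7 in the other TRAP libraries, and Dlk1 ran from 22.9 to 56.9 CPM. These genes are named with their values in view. Nnat and Ndn, imprinted genes that many forebrain neurons also express, were the most abundant of the list in input, at 489 and 126 CPM in WT and 470 and 172 CPM in KO, and made up most of its summed level of 616 to 1120 CPM. Of the 9 genes of the list that could be tested, 0 passed between KO and WT input, and 2 (Nnat and Ndn) were higher in TRAP. At an unadjusted p under 0.05 Ndn (log2 0.45, edgeR unadjusted p = 0.00165) and Cartpt (log2 1.07, edgeR unadjusted p = 0.0374) were higher in KO input. The part of hypothalamic cells in the levels of the members was not tested.

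**Figure D4:**
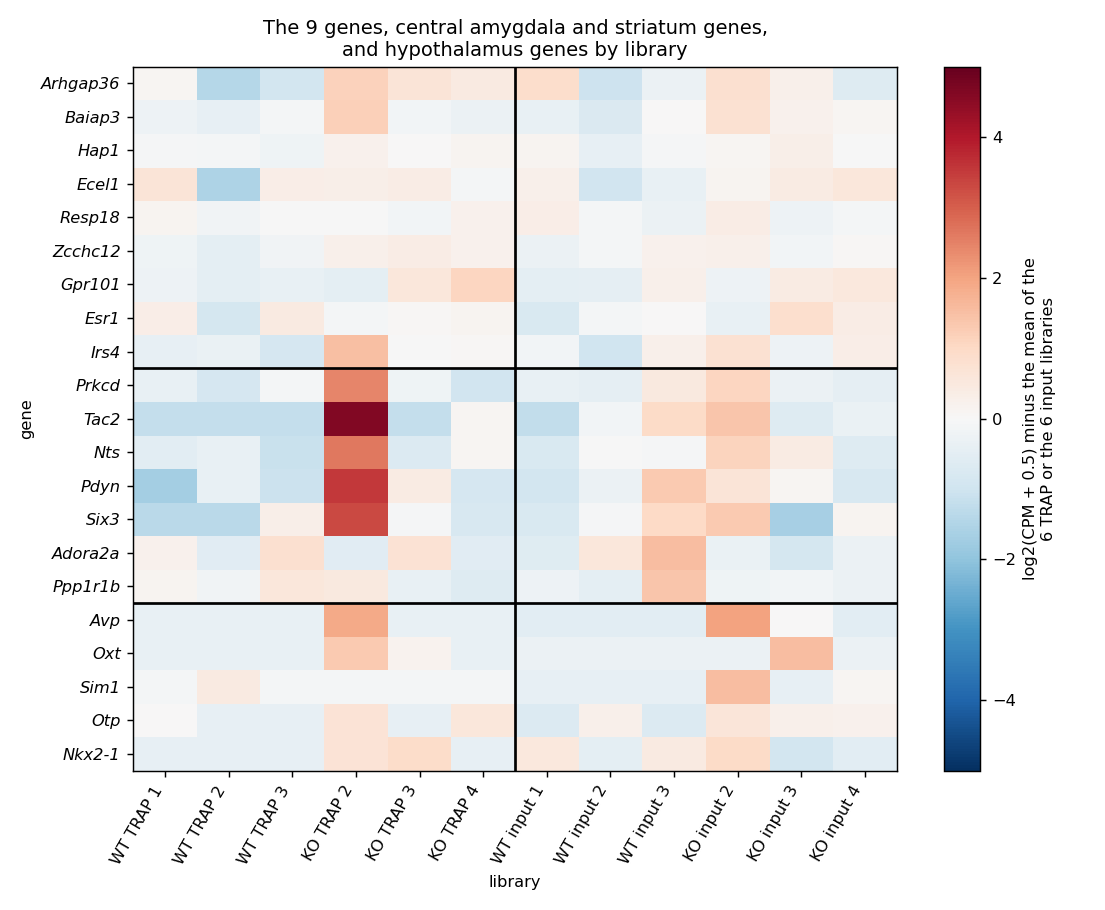
Each row is a gene and each column a library, colored by log2(CPM + 0.5) minus the mean of the 6 TRAP or of the 6 input libraries. The upper block holds the 9 members, the middle block genes of the central amygdala and striatum, and the lower block hypothalamus genes, chosen after their values were seen. KO TRAP pool 2 is red for Tac2, Pdyn, Prkcd, Nts and Six3, WT input pool 3 is lighter red for Adora2a and Ppp1r1b, and WT pool 2 is blue for most members.

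Genes tied to the members by family or pathway were read as a list of 28, of which 26 could be tested. Between KO and WT input 0 of 26 passed the adjusted p of edgeR, with a median log2 difference of -0.02 and 11 above 0. At an unadjusted p under 0.05 there was 1, Esrrb, which was lower in KO (log2 -1.41, SE 0.59, edgeR unadjusted p = 0.0267 and adjusted p = 1). In TRAP against input 6 rose and 7 fell, with a median of 0.02. Risen were Ahi1, the partner of Hap1 (log2 0.32), Ptprn (0.55) and Ptprn2 (0.24), the dense-core vesicle phosphatases related to Resp18, Zcchc18, the paralog of Zcchc12 (0.55), Irs2, a paralog of Irs4 (0.82), and Prkaca, a kinase that Arhgap36 inhibits (0.32). Fallen were the Munc13 paralogs Unc13b (-0.68) and Unc13c (-0.99), the insulin receptor Insr (-0.74), Mme (-1.93), a peptidase related to Ecel1, Esrrg (-1.66), Htt, the gene of huntingtin (-0.22), and the Hedgehog receptor Ptch1 (-0.84). Esr2, the other estrogen receptor, was too low to test, at 0.255 to 0.822 CPM on average in the 4 groups. The most abundant of the list in input, Prkacb at 487 CPM in WT and 531 in KO and Ahi1 at 450 and 508 CPM, did not pass between genotypes.

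Other lists were read in the same TRAP against input contrast. All 10 tested markers of astrocytes, all 10 of oligodendrocytes and all 10 of microglia fell in TRAP, with median log2 differences of -3.02, -3.56 and -3.59. Of 15 markers of GABA neurons 12 fell and 1 rose, and Gad1 (-1.73) and Gad2 (-1.66) were among those that fell. Of 19 tested genes of the central and medial amygdala 1 rose, Meis2 (0.35), and 3 fell, with a median of -0.68, and Pde10a, the most abundant with Meis2 in input, was at -0.12. Of 9 basolateral amygdala genes 3 rose and 0 fell, among the former Etv1 (0.68), and Lypd1 was at -0.46. Of 23 tested hippocampal markers 9 rose and 7 fell, with Slc17a7 at 0.26 and Zbtb20 at -0.87, both past the test. Of blood vessel markers 4 of 5 fell, and of choroid plexus markers 1 of 5 fell. Between KO and WT input 0 genes of any of these lists passed in edgeR. At an unadjusted p under 0.05 there were 3 hippocampal markers higher and 1 lower in KO, 1 central and medial amygdala gene in each direction, 2 hypothalamus and 2 choroid plexus genes higher, and 1 oligodendrocyte gene lower. The median log2 difference was 0.28 for hypothalamus, -0.17 for central and medial amygdala, 0.13 for basolateral amygdala, -0.07 for hippocampal neurons and 0.05 for GABA neurons. It was 1.16 for the 5 tested choroid plexus genes and 0.65 for the 5 tested blood vessel genes. Both were above the 0.45 of the members. For astrocytes it was 0.06, for oligodendrocytes -0.03 and for microglia -0.13. The 10 listed choroid plexus genes summed to 353 CPM in KO input pool 4, the highest input for 4 of the 5 tested. KO input pool 2 (42.9 CPM) lay within the range of the WT inputs (42.4 to 102 CPM), and KO input pool 3 (27.7 CPM) below it. Of the 5 tested, 2 were higher in KO input without overlap. How far the choroid plexus median rests on pool 4 was not tested. In TRAP, as a description, the median KO to WT difference was 0.525 for hypothalamus, with 7 of 8 tested genes above 0, beside 0.553 for the members. It was 0.21 for central and medial amygdala, 0.20 for basolateral amygdala and 0.12 for the relatives of the members (20 of 25 above 0). Hippocampal markers were at -0.11 and GABA neuron markers at -0.08. The choroid plexus gene Ttr was at 231 CPM in KO input pool 4, the pool with the highest Gpr101.

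The members' profiles over the 12 libraries, centered within TRAP and within input, were alike in part. Of the 36 pairs of members 31 had a correlation above 0, with a median r of 0.33, which includes the KO against WT difference by which the members were known. Within the 4 groups 24 of 36 were above 0, with a median of 0.18. The closest pair was Baiap3 and Irs4 (r = 0.87), then Arhgap36 and Hap1 (r = 0.79), and the lowest value was that of Resp18 and Esr1 (r = -0.36). Resp18 and Esr1 were opposed in input alone, with r = -0.79 over the input libraries and 0.60 over the TRAP libraries. These are descriptions over 12 libraries that share pools, and carry no p. Among the 13214 genes tested, the most like the members' mean profile were Nr2f2 (r = 0.95), a nuclear receptor, Lrrc4b (0.95), a synaptic adhesion protein, Rbm20 (0.92), a splicing factor, Gm11223 (0.91) and Zbtb39 (0.90). Most like Arhgap36 were Grb10 (0.95), an imprinted adaptor of insulin receptor signaling, Peg3 (0.88), also imprinted, Eef1e1 (0.88), Rbm20 (0.88) and Lca5l (0.87). Hap1 was at place 54 in that order, Irs4 at 362, Gpr101 at 4345 and Esr1, with r = -0.01, at 6579.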

How the data were processed

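The authors deposited raw read counts per gene for each library, for which they had aligned the reads with TopHat (mm9) and used HTSeq-count with Gencode vM1. These counts were not normalized, and reads with several alignments had been set aside. Group and pool come from the sample titles, where a title without the word input was read as TRAP. Libraries of the same group shared at most 2.59% of identical counts over the genes compared.

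Tests on the counts used edgeR 4.0.16 in R 4.3.3 (default expression filter by group, TMM, robust dispersion, quasi-likelihood test, Benjamini-Hochberg adjustment over all genes tested, threshold 0.05). KO against WT was fitted on the 6 libraries of TRAP or of input, and TRAP against input on all 12. Confidence intervals are at 95%, from the t quantile of the fit. P-values measure the spread between pools of mice. Floors of 3 counts cover counting error only. RPKM used the union of exons, profiles used log2(CPM + 0.5), and the steps were tested on simulated data. The alternatives were other scalings, filters, DESeq2 1.42.0, a block and leaving out each pool.

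The members and all gene lists were chosen with earlier results of these data known. Named were the members, Fosb, from each list the genes past the threshold between KO and WT input and the 2 highest in input, and the 5 genes most like the members and most like Arhgap36. Other list genes were added with their values in view. The TRAP and input libraries of a pool come from the same mice, and their deviations correlated at r = 0.058 to 0.106. The shared numbers 2 and 3 of WT and KO pools stand for different mice (r = -0.07 to 0.003).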

Additional observations from a re-analysis of the deposited data

How the results depend on the processing

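Between KO and WT input, 4 genes passed, and 19 with no filter beyond 1 count, 8 in DESeq2, 7 in a fit of all 12 libraries and 1 to 5 when a pool was left out, the low end without WT pool 3 or KO pool 2. With the replicate block, which joins WT and KO pools by their shared number alone (numbers 2 and 3), 20 passed. No member passed under any of the 15 alternatives run, and 7 of the 135 values of members changed sign, while Arhgap36 was at 1.27 with that block. Between TRAP and input 5572 genes passed, and 4744 to 5634 without 1 pool and 5753 with the replicate block, which pairs the libraries of the same mice. Members that passed numbered 6, 5 to 6 without 1 pool, 7 with the block, and 5 to 8 over the 14 alternatives. The gains were Baiap3 under the block, DESeq2 (adjusted p = 0.0402), no robust dispersion (edgeR adjusted p = 0.0473) and no filter (edgeR adjusted p = 0.00171), and Esr1 with total counts (edgeR adjusted p = 0.0483), no filter (edgeR adjusted p = 0.0326) or without WT pool 2 or KO pool 3, and the block changed no other member call. The median KO to WT difference of members in TRAP, 0.55, ran from 0.23 to 0.61 without 1 pool and was 0.64 with the block by number, where Arhgap36 was at 2.16 and Ecel1 at 0.87. The cause of these changes was not tested. Other scalings moved the median of all genes by at most 0.0308 (log2). Depth limits Irs4, Arhgap36 and Ecel1 most, which had as few as 7, 11 and 18 reads in a library.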
